A study of Mus musculus with 96 samples.

Results

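The 19 libraries compared here were made from primary mouse embryonic fibroblasts (MEFs), isolated from CF-1 embryos at day 13 (E13), 7 to 10 h and 4 to 6 h after serum was given to starved cells. All cells had been held in 0.5% fetal calf serum for 36 h before serum was raised to 20%. Libraries were chosen by the time course, called Cycle 1 or Cycle 2, and the hour in their labels, which took 19 of the 95 libraries matched to a column of the deposited table. Cycle 1 was sampled every 0.5 h and gave 5 libraries at 4 to 6 h and 7 at 7 to 10 h, while Cycle 2 was sampled every hour and gave 3 and 4. Each hour was sampled once in a course, so the hours of a window stood in for replicates and the 2 courses were the repeat of the experiment. The labels do not say whether the courses used separate cell isolations, and p-values measure only the spread between these libraries.

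Cells starved of serum leave the cycle and rest in a quiescent state. Serum switches on the immediate early genes through MAP kinase signalling and Srf, and these genes are then silenced by feedback phosphatases and Sprouty proteins. In G1 the D cyclins and later cyclin E drive phosphorylation of the retinoblastoma protein family, which frees E2F factors to transcribe the genes of origin licensing and DNA synthesis. The comparison asks which transcripts changed in the middle of this interval.

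Values are the deposited normalised read counts, scaled by the authors to a common library total, and differences are means of log2(value + 1) at 7 to 10 h minus those at 4 to 6 h, computed within each course and averaged. A gene was called when the Benjamini-Hochberg adjusted p from limma was under 0.05 over all 15895 genes, the mean difference was above 0.5 in size and both courses had the same sign. Reads on listed genes, worked out from what 1 read is worth in each column, ran from 4521526 to 11643286 per library. In 4 libraries, Cycle 1 at 5.5, 7 and 7.5 h and Cycle 2 at 5 h, values moved with log2 transcript length. Their deviations from the mean of all 19 libraries correlated with it at r between -0.537 and -0.368 across 8340 genes. In the others r was -0.052 to 0.28. The Cycle 1 library at 5.5 h also stood farthest from its group, with a median absolute log2 deviation of 0.247 over 8838 genes, against 0.054 to 0.199 in the others. Levels before serum are given from the library taken 1 h earlier. In those libraries Fosb, an immediate early gene, stood at 55.6 in Cycle 1 and 31.5 in Cycle 2. It stood at 17294 and 9099 in the libraries labelled 0 h, which the study describes as taken just before serum was added.

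All 14 measured fibroblast markers were above 0 in every library, and their summed value ran from 310176 to 361149.5 at 4 to 6 h and 243071 to 278949.7 at 7 to 10 h in Cycle 1, and from 273772 to 326926 and 219497 to 263930.4 in Cycle 2. Among them Col3a1, a fibrillar collagen, and Pdgfra, a platelet-derived growth factor receptor, were called lower. The 11 macrophage markers summed to 1104 to 1311 at 4 to 6 h and 1014 to 1543 at 7 to 10 h in Cycle 1, and from 3995 to 4857 and 3397 to 4109 in Cycle 2, and 0 of them were called. Among 8 epithelial markers 4 were called lower, Krt14, Cldn4, Krt8 and Cdh1, and their sum ran from 652 to 774 at 4 to 6 h and 359 to 661 at 7 to 10 h in Cycle 1, and from 267 to 334 and 208 to 229 in Cycle 2. Muscle markers had 1 of 7 called higher and 2 lower, neural markers 1 of 7 higher, and endothelial markers 1 of 8 lower. Among all genes 9.00% were called higher and 6.78% lower. The part of these markers in the results below was not tested, and in bulk RNA fewer cells of a type cannot be told apart from less RNA per cell.

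At 7 to 10 h, 1431 genes were called higher and 1078 lower than at 4 to 6 h, which is 9.00% and 6.78% of the genes tested. Rises were therefore 57% of the calls, but they were 48.5% with TMM rescaling (1179 higher and 1254 lower), 47.7% with edgeR on recovered reads (1166 and 1278) and 45.5% after the trend of each library over transcript length was removed (1024 and 1227), an alternative chosen after seeing the data. The last of these was fitted on the 14245 genes with a transcript length, among which the calls as deposited were 1286 higher and 1009 lower. The median difference over all genes was 0.06 as deposited and 0.016 with TMM. Differences beyond 1 on the log2 scale were found in 285 of the rises and 316 of the falls. The windows did not overlap in either course in 351 of the genes called higher and 314 of those called lower, against 530 and 419 among all genes tested (3.33% and 2.64%). Differences in the 2 courses had a Pearson correlation of 0.595 across the 15895 genes and 0.764 across the 10304 with a mean value of at least 50, a description across genes, which are not independent replicates. Of the 1768 genes higher in Cycle 1 alone, 91.4% had a difference above 0 in Cycle 2, as did 55% of all genes, and of the 1250 lower genes 90.3% had one below 0, as did 44.7% of all genes.

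**Figure D1:**
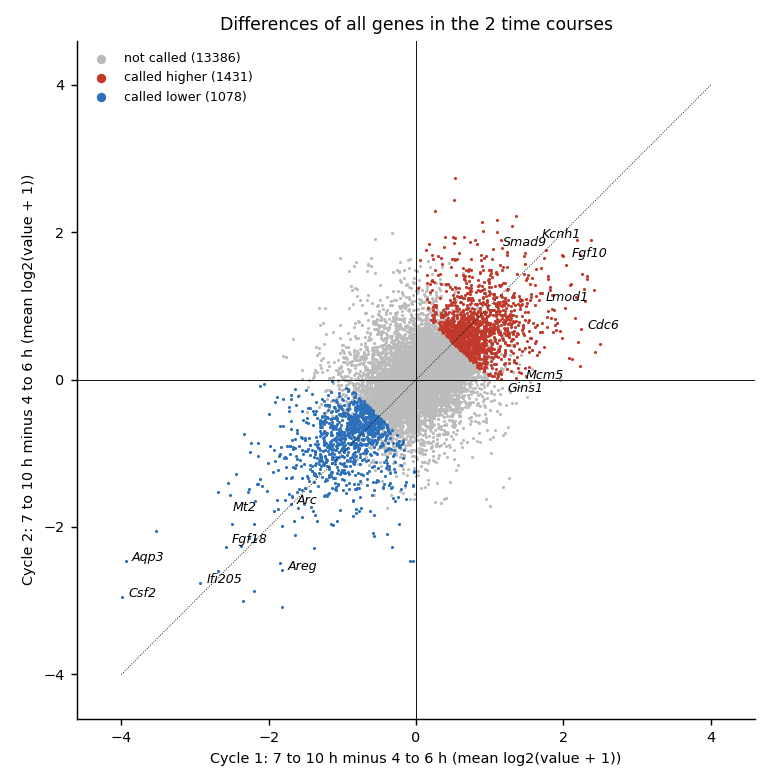
Difference between 7 to 10 h and 4 to 6 h for each of 15895 genes in Cycle 1 (horizontal axis) and Cycle 2 (vertical axis), in units of mean log2(value + 1), with the 1431 genes called higher in red, the 1078 called lower in blue, and equality of the courses as a dotted line. Csf2 and Aqp3 lie farthest to the lower left, Kcnh1, Smad9 and Fgf10 lie near the upper right, and Cdc6 and Mcm5 lie below the dotted line.

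Among called genes with a mean value of at least 50, the 12 largest falls included those of Aqp3, Ifi205, Fgf18, Cxcl10, Areg, Angptl1, Rsad2, Agtr2, Cmpk2, Ndrg1 and Mt2, with differences from -3.20 to -1.86. They join secreted growth factors (Fgf18, Areg), interferon-stimulated genes (Cxcl10, Rsad2, Cmpk2), a metallothionein (Mt2) and an angiotensin receptor (Agtr2). Aqp3 encodes aquaglyceroporin 3, a channel for water and glycerol, and lies in mm9 at chr4:41039755-41045216. Aqp3 stood at 1721, 1192, 1125, 905 and 457 at 4, 4.5, 5, 5.5 and 6 h of Cycle 1 and between 21.6 and 272, with a median of 63.5, in the 7 libraries from 7 to 10 h. Aqp3 values in Cycle 2 were 316, 268 and 156 at 4, 5 and 6 h and 114, 62.1, 25.3 and 17.2 at 7, 8, 9 and 10 h. The windows did not overlap in either course, and the difference was -3.20 ± 0.49 (SE, adjusted p = 0.000212, with -3.94 in Cycle 1 and -2.46 in Cycle 2). At 1 h before serum Aqp3 was listed at 0 in Cycle 1 and 0.954 in Cycle 2, and at 11 to 14 h it averaged 6.89 and 5.58. Ndrg1, a gene induced by hypoxia and stress, differed by -1.87 ± 0.26 (SE, adjusted p = 0.000137, with -1.64 in Cycle 1 and -2.10 in Cycle 2). Ndrg1 stood at 3413, 2676, 2391, 2205 and 1576 from 4 to 6 h of Cycle 1 and between 515 and 1211, with a median of 742, in the 7 libraries from 7 to 10 h. Ndrg1 values in Cycle 2 were 3161, 1942 and 1061, then 751, 555, 330.1 and 258.

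The 12 largest rises were those of Smad9, Kcnh1, Fgf10, Grin3a, 9930013L23Rik, Lce1g, Siglecg, Gm2115, Shank2, Sdpr, Lurap1l and Grb14, with differences from 1.84 to 1.48. These 12 share no list used here apart from Fgf10, a growth factor of the mesenchyme. Smad9 (chr3:54559504-54605179 in mm9) transmits signals of bone morphogenetic proteins. Smad9 stood at 16.3, 19.3, 27.6, 20.4 and 46.4 from 4 to 6 h of Cycle 1 and between 48.9 and 139, with a median of 114, in the 7 libraries from 7 to 10 h. Smad9 values in Cycle 2 were 15.0, 30.1 and 57.5, then 80.0, 91.3, 129 and 101. Every value at 7 to 10 h lay above every value at 4 to 6 h of the same course, with a difference of 1.84 ± 0.27 (SE, adjusted p = 0.000163, with 1.98 in Cycle 1 and 1.70 in Cycle 2). Kcnh1, a voltage-gated potassium channel gene at chr1:194014666-194334041, differed by 1.84 ± 0.30 (SE, adjusted p = 0.000263, with 2.00 in Cycle 1 and 1.68 in Cycle 2). Kcnh1 stood at 28.8, 43.1, 54.4, 43.6 and 127 from 4 to 6 h of Cycle 1 and between 115 and 259, with a median of 241, in the 7 libraries from 7 to 10 h. Kcnh1 values in Cycle 2 were 20.6, 48.0 and 110.3, then 133, 165, 169.6 and 157. In Cycle 1 the 6 h library lay inside the later range, so the windows overlapped there. Fgf10 differed by 1.79 ± 0.26 (SE, adjusted p = 0.000152, with 2.03 in Cycle 1 and 1.56 in Cycle 2). Fgf10 stood at 40.7, 27.5, 37.4, 39.9 and 54.9 from 4 to 6 h of Cycle 1 and between 77.7 and 247, with a median of 159.6, in the 7 libraries from 7 to 10 h. Fgf10 values in Cycle 2 were 63.7, 82.6 and 158, then 149, 316, 348 and 370.4. The Cycle 2 value at 7 h was below that at 6 h. Its level 1 h before serum, 329 in Cycle 1 and 277 in Cycle 2, was above the mean of 175 at 7 to 10 h in Cycle 1 and below that of 296 in Cycle 2. All 24 of these genes kept their call when each of the 19 libraries was left out in turn, while with Cycle 2 alone, 4 against 3 libraries, all 24 lost it.

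**Figure D2:**
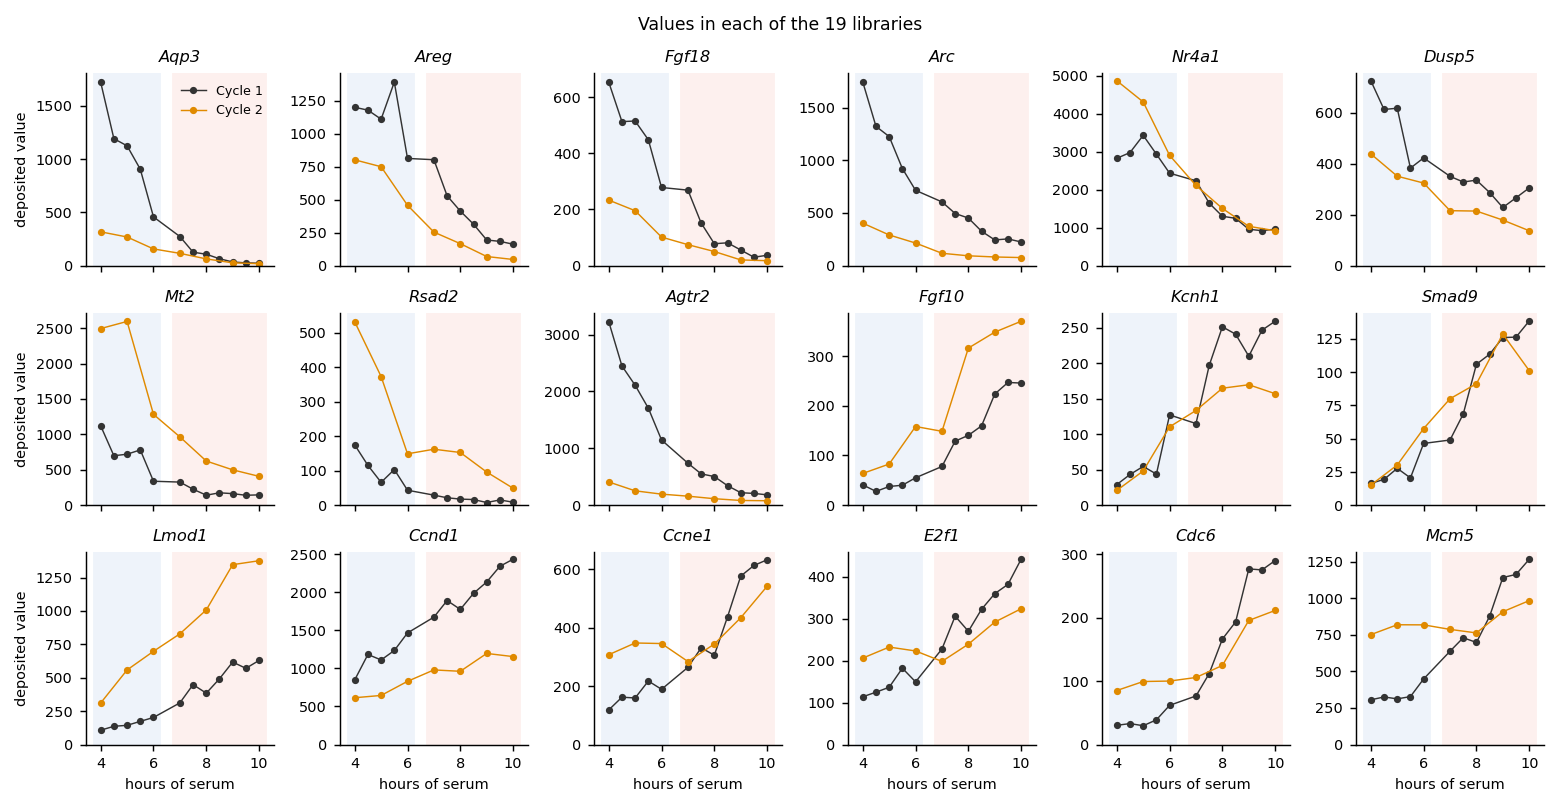
Deposited value (vertical axes, from 0) against hours of serum (horizontal axes) for 18 genes in each of the 19 libraries, with Cycle 1 in black, Cycle 2 in orange, the 4 to 6 h window shaded blue and the 7 to 10 h window shaded red. Aqp3 drops from 1721 at 4 h to a lowest value of 21.6 in Cycle 1, while Cdc6 climbs from 29.7 to 290.2 in Cycle 1 and from 85.2 to 211 in Cycle 2.

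Of 30 measured immediate early genes 14 fell (46.7%, against 6.78% of all genes) and 0 rose (against 9.00%), with a median difference of -0.52. With TMM 14 were also called lower, and with edgeR 15. The called members include the transcription factors of the AP-1, Egr and Nr4a families (Fos, Fosb, Junb, Egr1, Egr2, Atf3, Nr4a1, Nr4a3) and Zfp36, which destabilises mRNA. Arc, which encodes a capsid-like protein known from synapses, differed most, by -1.70 ± 0.22 (SE, adjusted p = 0.000114, with -1.70 in Cycle 1 and -1.69 in Cycle 2). Arc stood at 1743, 1322, 1225, 921 and 714 from 4 to 6 h of Cycle 1 and between 223 and 604, with a median of 325, in the 7 libraries from 7 to 10 h. Arc values in Cycle 2 were 403, 290.3 and 213, then 116, 92.3, 81.2 and 75.4. Neither course had any overlap between the windows. Nr4a1, an orphan nuclear receptor, differed by -1.39 ± 0.19 (SE, adjusted p = 0.000132, with -1.21 in Cycle 1 and -1.58 in Cycle 2). Nr4a1 stood at 2824, 2976, 3429.6, 2934 and 2433 from 4 to 6 h of Cycle 1 and between 918 and 2232, with a median of 1244, in the 7 libraries from 7 to 10 h. Nr4a1 values in Cycle 2 were 4869, 4309.8 and 2902, then 2109, 1504, 1033 and 916. Cycle 1 values of Nr4a1 had their peak at 5 h, and the lowest values of both courses lay close together. Fosb stood at 249.9, 218, 204, 129.9 and 106 from 4 to 6 h of Cycle 1 and between 52.9 and 77.7, with a median of 67.5, in the 7 libraries from 7 to 10 h. Fosb values in Cycle 2 were 431, 230.0 and 151, then 129.5, 111, 98.0 and 71.6. Its difference was -1.34 ± 0.20 (SE, adjusted p = 0.000204, with -1.38 in Cycle 1 and -1.29 in Cycle 2). Nr4a3 lost its call when any of 12 libraries was left out in turn.

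Inhibitors of the same pathway showed the highest share of falls among the lists. Of 17 genes of MAP kinase phosphatases, Sprouty and Spred proteins and related inhibitors, 9 were called lower and 0 higher, with a median of -0.51. The share of falls was 52.9%, against 6.78% of all genes, of which 9.00% rose. Dusp5, a nuclear phosphatase of Erk, differed by -0.93 ± 0.14 (SE, adjusted p = 0.000179, with -0.85 in Cycle 1 and -1.00 in Cycle 2). Dusp5 stood at 725, 613, 618, 382 and 422 from 4 to 6 h of Cycle 1 and between 228 and 350.1, with a median of 305, in the 7 libraries from 7 to 10 h. Dusp5 values in Cycle 2 were 438, 351 and 324, then 215, 214, 178 and 137. Errfi1, an inhibitor of the EGF receptor, differed by -0.80 ± 0.13 (SE, adjusted p = 0.000232, with -0.80 in Cycle 1 and -0.81 in Cycle 2) and was still at a mean of 7039 in Cycle 1 and 5870 in Cycle 2, against 455 and 1274 in the library 1 h before serum. The cytoplasmic Erk phosphatase gene Dusp6 differed by -0.65 ± 0.11 (SE, adjusted p = 0.000304, with -0.64 in Cycle 1 and -0.66 in Cycle 2) and Spred1 by -0.80 ± 0.14 (SE, adjusted p = 0.000386, with -0.81 in Cycle 1 and -0.79 in Cycle 2). Spred2 lost its call without any of 11 libraries.

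Among 30 EGF receptor ligands and growth cytokines 15 fell (50%) and 3 rose (10%), with a median of -0.45. Among all genes 6.78% fell and 9.00% rose, so the share of rises was near that of all genes. Csf2, the granulocyte-macrophage colony-stimulating factor, had the largest fall, -3.47 ± 0.44 (SE, adjusted p = 0.000114, with -3.99 in Cycle 1 and -2.94 in Cycle 2). Csf2 stood at 122, 74.2, 66.6, 73.3 and 30.9 from 4 to 6 h of Cycle 1 and between 0.745 and 9.58, with a median of 3.18, in the 7 libraries from 7 to 10 h. Csf2 values in Cycle 2 were 43.1, 29.0 and 8.39, then 7.62, 1.88, 2.30 and 0. At these low values the size of the difference depends on the 1 added to each value. Areg encodes amphiregulin, a ligand of the EGF receptor, and differed by -2.21 ± 0.35 (SE, adjusted p = 0.000255, with -1.82 in Cycle 1 and -2.59 in Cycle 2). Areg stood at 1200.0, 1178, 1109.9, 1391 and 812 from 4 to 6 h of Cycle 1 and between 162 and 802, with a median of 314, in the 7 libraries from 7 to 10 h. Areg values in Cycle 2 were 802, 749 and 457, then 253, 166, 68.2 and 45.8. Fgf18, a fibroblast growth factor that is not in this list, differed by -2.43 ± 0.40 (SE, adjusted p = 0.000319, with -2.58 in Cycle 1 and -2.27 in Cycle 2). Fgf18 stood at 654, 513, 515, 448 and 278 from 4 to 6 h of Cycle 1 and between 29.5 and 269, with a median of 77.6, in the 7 libraries from 7 to 10 h. Fgf18 values in Cycle 2 were 233, 195 and 101, then 74.3, 49.9, 19.9 and 17.2. The cytokine gene Csf3 and the chemokine genes Cxcl2 and Ccl2 differed by -1.71, -1.33 and -1.32, and Vegfa, which promotes vessel growth, by -0.98 ± 0.16 (SE, adjusted p = 0.000291, with -0.98 in Cycle 1 and -0.97 in Cycle 2). The 3 called higher were Fgf10, Gdf15, a stress-induced member of the Tgf-beta family, with 0.80, and Bdnf, a neurotrophin, with 0.75.

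Cyclins D1, E1 and E2, E2f1 and Rbl1 rose, with a larger difference in Cycle 1 in each, although 0 of the 5 passed the adjusted test between the courses. Among 32 G1 cyclins, kinases, E2F factors and inhibitors 5 were called higher and 2 lower. These shares were 15.6% and 6.2%, against 9.00% and 6.78% of all genes, so the share of falls was near that of all genes. The list's medians were 0.30 in Cycle 1 and 0.03 in Cycle 2. Ccnd1, cyclin D1 (chr7:152115836-152125774 in mm9), differed by 0.72 ± 0.11 (SE, adjusted p = 0.000183, with 0.81 in Cycle 1 and 0.63 in Cycle 2). Ccnd1 stood at 848, 1182, 1109.9, 1234 and 1465 from 4 to 6 h of Cycle 1 and between 1672 and 2432, with a median of 1984, in the 7 libraries from 7 to 10 h. Ccnd1 values in Cycle 2 were 614, 644 and 829.6, then 979, 961, 1195 and 1154. The windows of Ccnd1 did not overlap in either course. Ccne1, cyclin E1, differed by 0.79 ± 0.19 (SE, adjusted p = 0.00369, with 1.36 in Cycle 1 and 0.22 in Cycle 2). Ccne1 stood at 118, 162, 159, 217 and 189 from 4 to 6 h of Cycle 1 and between 264 and 632, with a median of 437, in the 7 libraries from 7 to 10 h. Ccne1 values in Cycle 2 were 307, 347 and 345, then 284, 344, 433 and 541. The Cycle 2 value at 7 h was the lowest of that course, and its windows overlapped. E2f1, which activates S phase genes, differed by 0.72 ± 0.13 (SE, adjusted p = 0.000599, with 1.21 in Cycle 1 and 0.23 in Cycle 2). E2f1 stood at 114, 125, 137, 182 and 149 from 4 to 6 h of Cycle 1 and between 228 and 442, with a median of 322, in the 7 libraries from 7 to 10 h. E2f1 values in Cycle 2 were 206, 232 and 223, then 198, 239, 292 and 324. Ccne2, cyclin E2, differed by 0.70 ± 0.15 (SE, adjusted p = 0.00209, with 0.99 in Cycle 1 and 0.41 in Cycle 2) and Rbl1, the pocket protein p107, by 0.63 ± 0.14 (SE, adjusted p = 0.00262, with 0.82 in Cycle 1 and 0.44 in Cycle 2).

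The 2 members called lower were Cdk inhibitors, while the inhibitor genes Cdkn1a, Cdkn1b, Cdkn2a, Cdkn2c and Cdkn2d were not called. Cdkn1c, which encodes p57, differed by -0.85 ± 0.14 (SE, adjusted p = 0.000329, with -0.91 in Cycle 1 and -0.78 in Cycle 2). Cdkn1c stood at 2907, 2229, 2364, 2704 and 1748 from 4 to 6 h of Cycle 1 and between 997 and 1920.1, with a median of 1182, in the 7 libraries from 7 to 10 h. Cdkn1c values in Cycle 2 were 548, 553 and 380.0, then 339, 298, 264 and 238. Its level was several times lower in Cycle 2 than in Cycle 1 in both windows. Cdkn2b, which encodes p15, differed by -0.51 ± 0.10 (SE, adjusted p = 0.000823, with -0.50 in Cycle 1 and -0.52 in Cycle 2), close to the threshold, and lost its call without any of 9 libraries. The differences of the other members were between -0.44 and 0.44 and were not called. Myc differed by -0.23, Cdkn1a, which encodes p21, by -0.23, Cdkn1b, which encodes p27, by 0.24, Cdk4 by 0.22, Cdk2 by -0.03, Ccnd3 by 0.33, Ccnd2 by 0.36 and Ccna2 by 0.18. Rb1 differed by -0.12, E2f3 by -0.01 and E2f4 by -0.25. The 63 cell cycle genes that the study analysed on these samples had 8 called higher and 2 lower (12.7% and 3.2%, against 9.00% and 6.78% of all genes), with Prkdc, a DNA repair kinase, and Cdc14b, a phosphatase, among those called higher.

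The replication list had the highest share of rises of all lists. Of 46 licensing and fork genes 15 were called higher (32.6%, against 9.00% of all genes) and 0 lower (against 6.78%). The count of rises was 12 with TMM, 14 with edgeR and 12 after removal of the length trend. Cdc6, which loads the Mcm helicase at origins (chr11:98769115-98785254 in mm9), differed by 1.46 ± 0.25 (SE, adjusted p = 0.000427, with 2.24 in Cycle 1 and 0.69 in Cycle 2). Cdc6 stood at 30.3, 33.0, 29.7, 39.0 and 61.8 from 4 to 6 h of Cycle 1 and between 76.6 and 290.2, with a median of 193, in the 7 libraries from 7 to 10 h. Cdc6 values in Cycle 2 were 85.2, 99.4 and 100.1, then 106, 125, 196 and 211. The windows did not overlap in either course. Prim1, the catalytic subunit of primase, differed by 0.99 ± 0.16 (SE, adjusted p = 0.000235, with 1.64 in Cycle 1 and 0.34 in Cycle 2). Prim1 stood at 46.6, 67.6, 65.0, 102 and 91.0 from 4 to 6 h of Cycle 1 and between 154 and 307, with a median of 217, in the 7 libraries from 7 to 10 h. Prim1 values in Cycle 2 were 137, 185 and 204, then 187, 201, 226 and 270.2. Mcm5, a subunit of the replicative helicase, differed by 0.75 ± 0.14 (SE, adjusted p = 0.000547, with 1.40 in Cycle 1 and 0.11 in Cycle 2). Mcm5 stood at 305, 325, 312, 328 and 448 from 4 to 6 h of Cycle 1 and between 637 and 1266, with a median of 876, in the 7 libraries from 7 to 10 h. Mcm5 values in Cycle 2 were 751, 818 and 818, then 787, 763, 907 and 983. In Cycle 2 the Mcm5 values at 7 and 8 h lay inside the range of the early window. Rpa1, Uhrf1, Gmnn, Pola2 and Mcm2 differed by 0.85, 0.83, 0.79, 0.77 and 0.77, and Pold1, Mcm4, Mcm3, Rfc2, Lig1, Pole and Chaf1a by 0.61 to 0.52.

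Not called were the other origin and helicase genes, among them Orc1 (0.49), Orc5 (0.46), Cdc7 (0.43), Mcm7 (0.39), Mcm6 (0.27), Cdt1 (0.27) and Dbf4 (-0.06). Pcna, the sliding clamp, differed by 0.28 in Cycle 1 and -0.19 in Cycle 2. Gins1 and Chaf1b had mean differences of 0.52 and 0.56 but were below 0 in Cycle 2, with -0.12 and -0.14, and were not called. The list's median was 0.74 in Cycle 1 and 0.05 in Cycle 2, and the difference in Cycle 1 was above that in Cycle 2 in 43 of 46 members (93.5%), against 53.1% of all genes. In the test of the difference between the courses, 1 of the 46 passed after adjustment, Gins1, and 36 had an unadjusted p under 0.05, against 1920 of all 15895 genes.

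**Figure D3:**
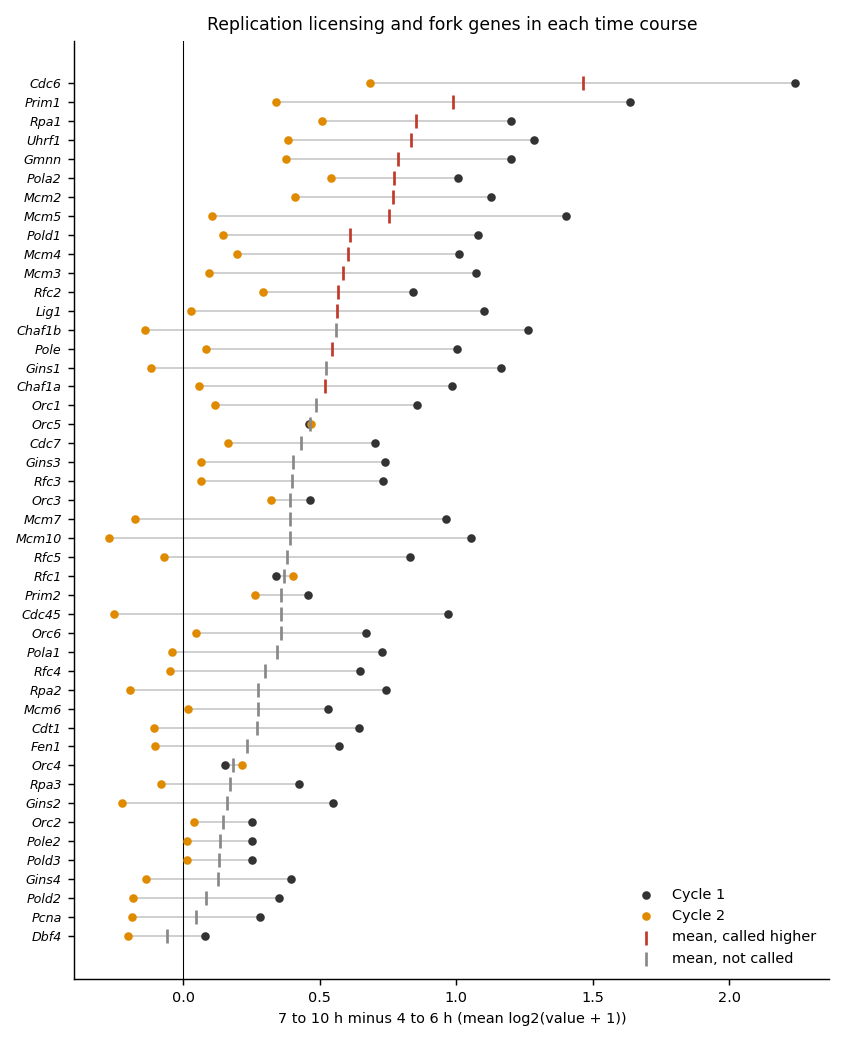
Differences between 7 to 10 h and 4 to 6 h in mean log2(value + 1) (horizontal axis) for the 46 replication licensing and fork genes (rows, in order of the mean), with a black point for Cycle 1, an orange point for Cycle 2 and a vertical tick for the mean, red where called. The black points lie to the right of the orange ones in 43 rows, and 15 ticks are red.

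The promoters of genes from this list are shown because E2F factors act through a short DNA element. The letters TTTCCCGC, TTTCGCGC, TTTGCCGC and TTTGGCGC were searched on both strands in the 250 bases before RefSeq starts (GRCm38.p6), where matches may overlap. At least 1 match was found in 10 of 38 licensing genes with a promoter in the table (26.3%), in 7 of 23 genes of the G1 list (30.4%) and in 409 of all 11510 genes with one (3.6%). Among the 11 called licensing genes with a promoter the matches were in Mcm5, Cdc6 and Uhrf1. The stretches below are 120 bases long, 5′ to 3′ on the strand of the gene, with the matches in capitals.
Cdc6, chr11:98908003-98908122, plus strand: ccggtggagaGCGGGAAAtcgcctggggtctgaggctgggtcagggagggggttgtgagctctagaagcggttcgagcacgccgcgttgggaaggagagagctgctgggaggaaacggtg
Mcm5, chr8:75109346-75109465, plus strand: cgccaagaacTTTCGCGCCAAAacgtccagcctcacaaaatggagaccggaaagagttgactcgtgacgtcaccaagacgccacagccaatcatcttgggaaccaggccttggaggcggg
The Mcm5 stretch has 2 matches on opposite strands that overlap. A match describes the letters and not a bound site, and the promoters of Ccne1 and E2f1 had no match to these letters in the window.

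Enzymes that supply DNA synthesis with nucleotides showed rises as well. In the nucleotide and one-carbon list 8 of 34 were called higher (23.5%, against 9.00% of all genes) and 0 lower (against 6.78%). The count of rises was 5 with TMM, 5 with edgeR and 4 after removal of the length trend. In these fits 1179 of 15895, 1166 of 15895 and 1024 of 14245 genes were called higher. The 8 were Dck, Mthfd1, Rrm1, Rrm2, Prps2, Psat1, Dut and Cad. Dck, which phosphorylates deoxynucleosides for salvage, differed by 0.97 ± 0.21 (SE, adjusted p = 0.00207, with 1.30 in Cycle 1 and 0.64 in Cycle 2). Mthfd1, an enzyme of folate metabolism, differed by 0.78 ± 0.12 (SE, adjusted p = 0.000192, with 0.92 in Cycle 1 and 0.65 in Cycle 2), and its windows did not overlap in either course. The ribonucleotide reductase subunits Rrm1 and Rrm2 differed by 0.75 ± 0.13 (SE, adjusted p = 0.00036, with 1.19 in Cycle 1 and 0.32 in Cycle 2) and 0.64 ± 0.12 (SE, adjusted p = 0.000721, with 1.02 in Cycle 1 and 0.26 in Cycle 2).

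In the Atf4, tRNA synthetase and amino acid list 6 of 44 were called higher (13.6%, against 9.00% of all genes) and 1 lower (2.3%, against 6.78%). The count of rises was 4 with TMM, with edgeR and after removal of the length trend. Cth, which makes cysteine, differed by 1.29 ± 0.20 (SE, adjusted p = 0.000238, with 1.90 in Cycle 1 and 0.68 in Cycle 2), and the synthetase genes Mars, Lars and Dars by 0.71, 0.58 and 0.58. The member called lower was Ddit4, an inhibitor of mTORC1, with -0.56.

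Among 23 interferon-stimulated genes 9 fell (39.1%, against 6.78% of all genes) and 0 rose (against 9.00%). The medians were -0.84 in Cycle 1 and 0.08 in Cycle 2. The difference was lower in Cycle 1 in 21 of the 23 genes, of which 0 passed the adjusted test between the courses and 11 had an unadjusted p under 0.05. Rsad2, an antiviral enzyme, differed by -2.05 ± 0.34 (SE, adjusted p = 0.000337, with -2.53 in Cycle 1 and -1.57 in Cycle 2). Rsad2 stood at 174, 115, 65.8, 103 and 42.9 from 4 to 6 h of Cycle 1 and between 7.32 and 28.7, with a median of 15.9, in the 7 libraries from 7 to 10 h. Rsad2 values in Cycle 2 were 532, 373 and 149, then 162, 153, 95.7 and 48.7. In Cycle 2 the values at 7 and 8 h lay above that at 6 h. Ifit3 and Ifit1, which bind viral RNA, differed by -1.57 and -1.17 ± 0.28 (SE, adjusted p = 0.00407, with -1.62 in Cycle 1 and -0.72 in Cycle 2), and the GTPase gene Gbp2 by -1.38 ± 0.19 (SE, adjusted p = 0.000143, with -1.84 in Cycle 1 and -0.92 in Cycle 2). Mx1, with a mean value of 13.1 over the 19 libraries, lost its call without any of 8 libraries. At 1 h before serum Ifit1 was at 1434 in Cycle 1 and 133 in Cycle 2, and at 7 to 10 h it averaged 27.4 and 119.9, so that the courses differed in level before and during the windows.

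Promoters of these genes are shown for the interferon-stimulated response element, searched as GAAANNGAAA on both strands in the same 250 bases. It was found in 9 of 19 genes of the list with a promoter (47.4%), in 6 of the 8 called lower that have a promoter in the table, and in 356 of all 11510 (3.1%). The capitals mark the matches.
Rsad2, chr12:26456453-26456572, minus strand: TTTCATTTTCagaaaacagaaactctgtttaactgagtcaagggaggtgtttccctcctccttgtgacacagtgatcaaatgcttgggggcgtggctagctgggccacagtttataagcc
Ifit1, chr19:34640769-34640888, plus strand: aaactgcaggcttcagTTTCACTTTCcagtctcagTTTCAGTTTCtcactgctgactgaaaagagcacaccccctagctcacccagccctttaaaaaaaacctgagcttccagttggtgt
Ifit3, chr19:34583363-34583482, plus strand: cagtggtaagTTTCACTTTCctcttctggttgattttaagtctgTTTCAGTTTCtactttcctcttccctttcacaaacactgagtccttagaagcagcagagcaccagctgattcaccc
Ifit1 and Ifit3 each had 2 matches in the window and Rsad2 had 1.

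Metallothioneins and antioxidant genes had 6 of 23 called lower (26.1%, against 6.78% of all genes) and 0 higher (against 9.00%). The median of the list was -0.06, against 0.06 over all genes. Mt2, which binds zinc and copper, differed by -1.86 ± 0.24 (SE, adjusted p = 0.000117, with -1.93 in Cycle 1 and -1.78 in Cycle 2). Mt2 stood at 1120.2, 697, 719, 779 and 337 from 4 to 6 h of Cycle 1 and between 138 and 325, with a median of 161, in the 7 libraries from 7 to 10 h. Mt2 values in Cycle 2 were 2496, 2597 and 1283, then 964, 622, 498 and 406. Its values were higher in Cycle 2 than in Cycle 1 at each shared hour. Mt1 differed by -1.15 ± 0.17 (SE, adjusted p = 0.00019, with -1.06 in Cycle 1 and -1.23 in Cycle 2), Srxn1, which repairs oxidised peroxiredoxins, by -1.39 ± 0.20 (SE, adjusted p = 0.000171, with -1.33 in Cycle 1 and -1.44 in Cycle 2), and Hmox1, haem oxygenase 1, by -0.89 ± 0.16 (SE, adjusted p = 0.000474, with -1.02 in Cycle 1 and -0.75 in Cycle 2). Txnrd1 and Gstm1 were also called lower, with -0.67 and -0.58.

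Of 30 genes of glycolysis, glucose uptake and the hypoxia response 10 were called lower and 1 higher, with a median of -0.35. These shares were 33.3% and 3.3%, against 6.78% and 9.00% of all genes. Those lower include the glucose transporters Slc2a1 (-0.57) and Slc2a3 (-0.84), the hexokinase gene Hk2 (-0.68), the lactate transporter Slc16a1 (-0.62) and the hypoxia-inducible genes Ankrd37 (-1.54) and Bnip3 (-0.95). Pfkm, the muscle form of phosphofructokinase, was the 1 called higher, with 0.60, while the liver form Pfkl was called lower with -0.73.

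Clock genes had 5 of 20 called lower and 1 higher (25.0% and 5.0%, against 6.78% and 9.00% of all genes). The count of falls was 8 with TMM, 9 with edgeR and 10 after removal of the length trend. Per2, a repressor of the clock, differed by -1.42 ± 0.29 (SE, adjusted p = 0.00124, with -1.64 in Cycle 1 and -1.20 in Cycle 2). Per2 stood at 54.7, 35.6, 33.3, 11.1 and 15.5 from 4 to 6 h of Cycle 1 and between 4.57 and 13.6, with a median of 7.39, in the 7 libraries from 7 to 10 h. Per2 values in Cycle 2 were 58.1, 32.4 and 25.2, then 22.9, 16.0, 9.96 and 14.3. In Cycle 1 the 5.5 h library lay within the later range. Cry1 differed by -0.89 ± 0.11 (SE, adjusted p = 0.000114, with -1.28 in Cycle 1 and -0.49 in Cycle 2), Bhlhe40 by -0.93 ± 0.13 (SE, adjusted p = 0.000153, with -1.00 in Cycle 1 and -0.86 in Cycle 2) and Bhlhe41 by -0.84 ± 0.20 (SE, adjusted p = 0.00322, with -0.98 in Cycle 1 and -0.70 in Cycle 2), and Npas2, a partner of Bmal1, was called higher with 0.66. Npas2 lost its call without any of 3 libraries and Cry2 without any of 7.

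**Figure D4:**
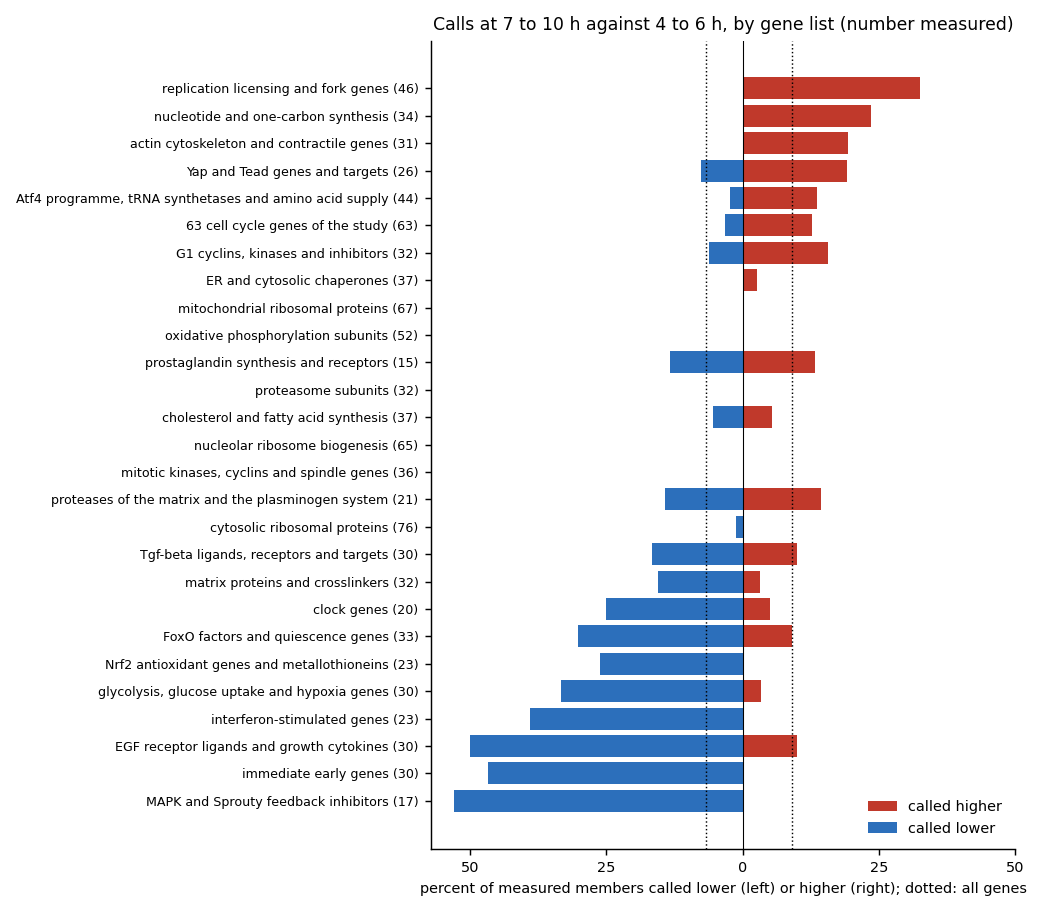
Percent of the measured members of each of 27 gene lists called lower (blue, to the left) or higher (red, to the right) at 7 to 10 h, with dotted lines at 6.78% and 9.00%, the shares of all genes. Replication licensing genes stand at 32.6% higher, and inhibitors of MAP kinase signalling stand at 52.9% lower.

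Of 33 FoxO factors and quiescence genes 10 were called lower and 3 higher (30.3% and 9.1%, against 6.78% and 9.00% of all genes). Agtr2, Chodl, Olfml1 and Lgr5 were placed in this list with their fall after serum in these data known, so their calls are a description. Without these 4 genes, 6 of 29 were called lower (20.7%) and 3 higher. Agtr2, the type 2 angiotensin receptor (chrX:21061670-21066290 in mm9), differed by -1.97 ± 0.30 (SE, adjusted p = 0.000194, with -2.55 in Cycle 1 and -1.40 in Cycle 2). Agtr2 stood at 3229, 2449, 2109, 1706 and 1145 from 4 to 6 h of Cycle 1 and between 179.5 and 736, with a median of 341, in the 7 libraries from 7 to 10 h. Agtr2 values in Cycle 2 were 406, 250.1 and 192, then 156, 111, 80.4 and 75.4. It had stood at 10118 in Cycle 1 and 1136 in Cycle 2 in the library 1 h before serum. Chodl and Olfml1, with means near 30 over the 19 libraries, differed by -2.79 and -1.91, and Igfbp5, a binding protein of insulin-like growth factors, by -1.44 ± 0.19 (SE, adjusted p = 0.000123, with -1.98 in Cycle 1 and -0.90 in Cycle 2). Gas6, a ligand named for growth arrest, differed by -1.02 ± 0.14 (SE, adjusted p = 0.000137, with -1.09 in Cycle 1 and -0.95 in Cycle 2). The 3 called higher were Klf15, Fbxo32, a known FoxO target, and Txnip, which responds to glucose. Txnip differed by 0.84 ± 0.09 (SE, adjusted p = 6.53e-05, with 1.03 in Cycle 1 and 0.64 in Cycle 2), and its mean at 7 to 10 h, 889 in Cycle 1 and 1232 in Cycle 2, was still below the 6628 and 2954 read 1 h before serum.

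Among 32 genes of matrix proteins, crosslinkers and related proteins 5 were called lower and 1 higher (15.6% and 3.1%, against 6.78% and 9.00% of all genes). The falls were Has1, Eln, Col3a1, Col14a1 and Cd44, and the rise was Has2. The hyaluronan synthase genes Has1 and Has2 thus moved in opposite directions, with -1.59 ± 0.30 (SE, adjusted p = 0.000784, with -1.40 in Cycle 1 and -1.79 in Cycle 2) for Has1 and 0.68 ± 0.14 (SE, adjusted p = 0.00133, with 0.83 in Cycle 1 and 0.53 in Cycle 2) for Has2. Eln, elastin, differed by -0.88 ± 0.13 (SE, adjusted p = 0.00018, with -0.89 in Cycle 1 and -0.86 in Cycle 2). Matrix and plasminogen proteases and related genes had 3 of 21 called in each direction (14.3%, against 9.00% higher and 6.78% lower among all genes). Mmp10 (0.76), Serpinb2 (0.69) and Adamts5 (0.53) were higher and Adamts4 (-0.88), Adamts15 (-0.87) and Plat (-0.68) lower.

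Actin and contractile genes had 6 of 31 called higher (19.4%, against 9.00% of all genes) and 0 lower (against 6.78%). The count of rises was 4 with TMM and 3 with edgeR. Lmod1, leiomodin 1 of smooth muscle, differed by 1.42 ± 0.18 (SE, adjusted p = 0.000114, with 1.68 in Cycle 1 and 1.17 in Cycle 2). Lmod1 stood at 107, 137, 144, 174 and 203 from 4 to 6 h of Cycle 1 and between 312 and 629, with a median of 492, in the 7 libraries from 7 to 10 h. Lmod1 values in Cycle 2 were 311, 558 and 698, then 829, 1007, 1346 and 1376. The windows did not overlap, and Cycle 2 was higher at each shared hour. Actg2, Pdlim5, Tagln, Flna and Cnn2 were between 0.58 and 0.51, and Flna and Cnn2 lost their calls without any of 7 and 6 libraries. Of 26 Yap and Tead genes and targets 5 were called higher, Ankrd1 (0.87), Crim1 (0.76), Dlc1 (0.68), Tead1 (0.52) and Yap1 (0.51), and Tgfb2 and Tead4 lower. These shares were 19.2% and 7.7%, against 9.00% and 6.78% of all genes. The share of falls was thus near that of all genes, and 3 members were higher with TMM.

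In the Tgf-beta list 5 of 30 were called lower and 3 higher (16.7% and 10.0%, against 6.78% and 9.00% of all genes), and 2 were higher with TMM or edgeR, so the share of rises was near that of all genes. Smad3, which transmits the Tgf-beta signal, differed by -1.34 ± 0.26 (SE, adjusted p = 0.000939, with -1.61 in Cycle 1 and -1.08 in Cycle 2), the ligand gene Tgfb2 by -1.16 ± 0.19 (SE, adjusted p = 0.00027, with -1.22 in Cycle 1 and -1.10 in Cycle 2), and the receptor genes Tgfbr1 and Acvr1 by -0.57 each. Smad6, an inhibitor of bone morphogenetic protein signalling, was called higher with 1.05 ± 0.14 (SE, adjusted p = 0.000114, with 1.24 in Cycle 1 and 0.86 in Cycle 2), as were Id4 (0.98) and Ltbp1 (0.53). Of 15 prostaglandin genes Ptgir (-1.26) and Ptgs2 (-0.62), the prostacyclin receptor and the inducible cyclooxygenase, were called lower. Hpgd (1.09), which degrades prostaglandins, and Ptgs1 (0.63) were called higher. These calls were 13.3% of the list in each direction, against 6.78% lower and 9.00% higher among all genes.

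Several large lists held few or no calls. No gene was called among 36 mitotic genes, 65 nucleolar ribosome biogenesis genes, 32 proteasome subunits, 52 oxidative phosphorylation subunits and 67 mitochondrial ribosomal proteins, and their medians were 0.02, -0.09, 0.18, 0.04 and 0.15. With an adjusted p under 0.05 and no limit on size, 5, 27, 12, 9 and 19 of them passed, against 5985 of all 15895 genes. The lack of calls is therefore not a lack of small differences. The share that passed was below that of all genes in the mitotic, oxidative phosphorylation and mitochondrial ribosomal lists. It was near that of all genes in the nucleolar and proteasome lists. Of the genes that passed, 2, 2, 12, 8 and 19 had a difference above 0, and 3, 25, 0, 1 and 0 had one below 0. By edgeR 1 nucleolar gene was called lower and 0 in the other 4 lists. Among 76 cytosolic ribosomal proteins only Rpl24 was called, lower, at a mean value of 4.19, and the list's median was -0.15. Chaperones had 1 of 37 called higher (2.7%, against 9.00% of all genes), Sdf2l1 (0.87). Cholesterol and fatty acid synthesis had 2 of 37 in each direction (5.4%, against 9.00% higher and 6.78% lower among all genes), Acacb and Mvk higher and Tm7sf2 and Insig1 lower.

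The difference itself differed between the courses in 3 of 15895 genes, 0.0189%, and 1920 had an unadjusted p under 0.05. Gins1, a subunit of the replicative helicase complex, differed by 1.16 in Cycle 1 and -0.12 in Cycle 2, a gap of 1.28 ± 0.17 (SE, adjusted p = 0.0144 from limma). Lonp1, a mitochondrial protease, differed by 0.26 and -0.35 (gap 0.61, adjusted p = 0.0255 from limma), and Ripply1, with values near 0, by 0.12 and -1.45 (adjusted p = 0.0144 from limma). The count depended on single libraries, as 267 genes passed without the Cycle 1 library at 5.5 h, which stood apart from its group, and 27 without that at 6 h. Of the 267, 215 had the higher difference in Cycle 1, and 12 of them were replication licensing genes, 26.1% of that list against 1.68% of all genes. Over the 2509 calls the median size was 0.82 in Cycle 1 and 0.69 in Cycle 2, and 1584 were larger in Cycle 1.

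The levels in the neighbouring windows place these genes in the longer response and are given as values with no test. Of the 1431 genes called higher, 76.2% averaged less at 4 to 6 h than 1 h before serum in both courses, as did 52.1% of all genes, and 689 were still below that level at 7 to 10 h in both. The median of these genes, relative to 1 h before serum, was -1.30 at 2 to 3 h, -1.06 at 4 to 6 h, -0.26 at 7 to 10 h and -0.03 at 11 to 14 h in Cycle 1, and -0.90, -0.87, -0.19 and 0.05 in Cycle 2. Of the 1078 genes called lower, 480 were above the level before serum at 4 to 6 h in both courses (44.5%, against 26.8% of all genes) and 411 were below it (38.1%, against 52.1%). With the 0 h libraries averaged in, these counts were 477 and 421, and the share of the rises was 76%. From 7 to 10 h to 11 to 14 h the mean level went up again in both courses in 64% of the genes called higher, against 40.9% of all genes, and down again in 69.6% of those called lower, against 29.2%. The calls were made on the same 4 to 6 h and 7 to 10 h libraries, so these shares are a description.

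**Figure D5:**
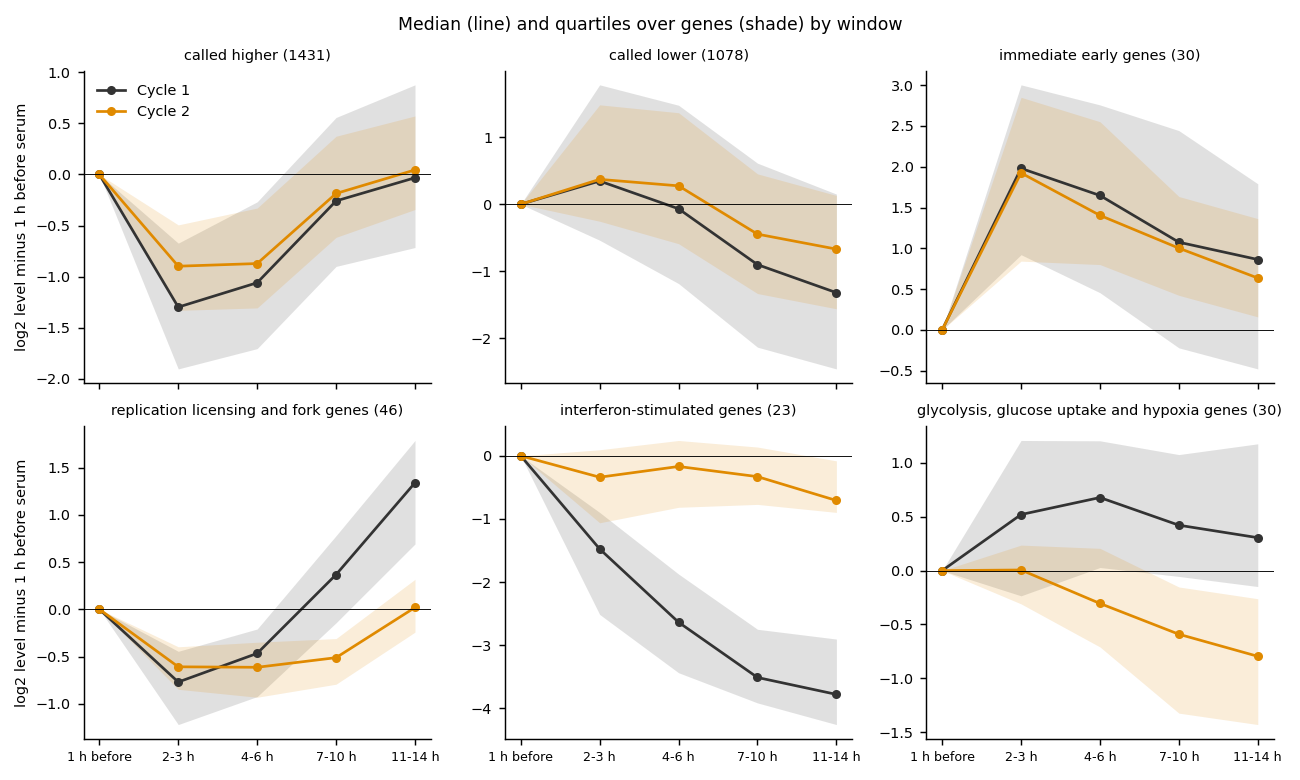
Median over genes (line) and quartiles (shade) of the mean log2(value + 1) minus that in the library 1 h before serum (vertical axes), at 4 later windows (horizontal axes), for Cycle 1 in black and Cycle 2 in orange. Genes called higher lie lowest at 2 to 3 h and return toward 0 by 11 to 14 h, replication genes reach 1.34 in Cycle 1 and 0.02 in Cycle 2 at 11 to 14 h, and interferon-stimulated genes lie at -3.51 in Cycle 1 and -0.33 in Cycle 2 at 7 to 10 h.

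Replication genes had medians of -0.47 at 4 to 6 h and 0.37 at 7 to 10 h relative to the level before serum in Cycle 1, and -0.61 and -0.51 in Cycle 2. Cdc6 averaged 562 at 11 to 14 h in Cycle 1 and 330 in Cycle 2, above every value shown for the windows compared, and Ccne1 averaged 1352 and 755. Immediate early genes had medians of 1.65 and 1.08 in the 2 windows in Cycle 1 and 1.40 and 1.00 in Cycle 2, still above the level before serum. Dusp5 averaged 300 in Cycle 1 and 186 in Cycle 2 at 7 to 10 h, against 19.5 and 32.4 before serum.

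Called genes also differed in length. The median transcript was 3342.5 bases among 1286 genes called higher with a transcript in the annotation, 2988 among 1009 called lower and 2955 among 11950 not called. Without the 4 libraries that moved with transcript length, a choice made after seeing the data, 1609 genes were called higher and 1189 lower, 1293 and 971 of them shared with the calls above, and the medians were 3144 and 3151. The GC content of the transcripts was 50%, 52.1% and 50.5% in the median for genes higher, lower and not called.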

How the data were processed

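The study sequenced polyadenylated RNA with single-end 50-base reads. The authors aligned reads with STAR to mm9, counted those on exons of both strands with HOMER and scaled each library to a common total, and the deposited values are this normalised signal. Of 96 columns 95 were matched to a library by name and 1 was not used. Low values came out as whole reads, within 0.1 read, in 94.7% to 96.2% of cases per library, and the recovered reads were used for edgeR as an alternative. For 3291 of the 15895 genes the values are averages over transcripts, so their recovered reads are rounded averages and not counts.

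Log2(value + 1) of 19 libraries was fitted with limma 3.58.1 in R 4.3.3, with a mean for each course and window. Alternatives used edgeR 4.0.16, TMM, other pseudocounts, filters, thresholds and libraries. Python 3.11.15, numpy 2.4.6 and pandas 2.3.3 made the summaries. In simulated data limma called 80 of 80 genes changed 2-fold, 53 of 100 changed 1.5-fold and 6 of 15695 unchanged, and edgeR 80, 78 and 0. The simulated libraries were independent, with the same dispersion for every gene and changes placed only in genes with enough reads. They had no change over the hours of a window and no trend over transcript length. These counts therefore check the code and do not measure false calls in the real libraries. Named genes are the 12 largest in each direction with a mean value of at least 50, up to 6 called members per list and direction, all members of the G1 and replication lists, and genes that differed between the courses. A gene named by this rule is not reported here. The lists and windows were chosen with earlier results of these data known. HOMER counted both strands, so reads of overlapping antisense genes cannot be told apart. Coordinates are GENCODE vM1 (mm9), promoters RefSeq GRCm38.p6.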

Additional observations from a re-analysis of the deposited data

Results flagged for a closer look

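In groups of 4 to 7 libraries, 1 library was farther from the others than Dixon's 95% limit in 6 of 114 groups tested over 38 genes, where chance alone flags about 1 group in 20. Dixon's limit takes no account of change over the hours of a window. The Cycle 1 library at 6 h, the last hour of its window, was above the 4 others of 4 to 6 h in 4 genes. This library held 5027842 reads on listed genes, the fewest of its group, whose median was 10655489. It had 611 for 9930013L23Rik against 251 to 332, 61.8 for Cdc6 against 29.7 to 39.0, 127 for Kcnh1 against 28.8 to 54.4 and 448 for Mcm5 against 305 to 328. The Cycle 1 library at 7 h, the earliest of its window, had an Aqp3 value of 272 against 21.6 to 125 in the other 6. The Cycle 2 library at 9 h had a Grin3a value of 85.8 against 50.8 to 54.4 in the other 3.

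The difference between the windows differed between Cycle 1 and Cycle 2 in 3 genes by the test of that difference. The gap was 1.28 for Gins1, 0.61 for Lonp1 and 1.57 for Ripply1, each higher in Cycle 1.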

How the results depend on the processing

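Over the 19 fits that each left out 1 library, the genes called higher numbered 1132 to 1669, those called lower 882 to 1209 and those that differed between the courses 0 to 267. The last of these was 7 without the Cycle 1 library at 8 h, 11 without the Cycle 2 library at 6 h, and 0 without that at 5 h and also without that at 8 h. With a mean value of at least 50, 827 genes were higher and 580 lower, and with a limit of 1 on the log2 difference 285 and 316. Cycle 2 alone, with 4 against 3 libraries, gave 2 and 5. The genes that differed between the courses numbered 1 with a pseudocount of 5, 0 after removal of the length trend and 12 without the 4 libraries that moved with transcript length, the last 2 settings chosen after seeing the data. Without the libraries at 6 h and 7 h, 2054 genes were higher and 1451 lower.

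With the 14 libraries at shared hours and the course as a replicate block, 1265 genes were higher and 1004 lower, 1150 and 887 of them shared with the main calls, and 1357 and 963 without a replicate block over all 19. Deviations at a shared hour correlated between the courses at 0.705, -0.257, 0.679, 0.348, 0.419, 0.358 and 0.207 from 4 to 10 h, so the hour did not pair every library. None of the 160 named genes that were called changed direction in the 34 alternatives, 111 kept their call in every alternative apart from Cycle 2 alone and the limit of 1, and 125 in each of the 19 fits without 1 library.

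Depth limits genes with low values, where the difference depends on the pseudocount.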
